A study of Mus musculus with 155 samples.

Results

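The genes described here are 10 mouse genes that encode secreted signals of neurons and endocrine cells. They are Vgf, Scg2, Chga, Chgb, Npy, Sst, Gal, Penk, Bdnf and Nptx2, of 55471 genes in each deposited count table. The set was chosen by the level of Vgf, which was far lower in oligodendrocyte progenitor cells (OPCs) that expressed H3.3K27M than in OPCs that expressed WT-H3.3. Values of the OPC lines are therefore given as a description with no test, as are those of OPCs against embryonic stem cells (ESCs).

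Neuropeptides and granins are made as large precursor proteins, sorted into dense-core vesicles, cut by prohormone convertases and released when the cell is stimulated. Granins (Chga, Chgb, Scg2 and the related Vgf) take part in forming these vesicles and are themselves precursors of active peptides. Many genes of this kind carry a cAMP response element through which CREB acts, and many are held silent outside neurons by the repressor REST. In the brain, OPCs are the dividing cells that give rise to oligodendrocytes.

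All cells were derivatives of KH2 mouse ESCs with a doxycycline (Dox)-inducible extra copy of SNAP-HA-tagged histone H3.3, either wild type (WT-H3.3) or with lysine 27 replaced by methionine (H3.3K27M) or leucine (H3.3K27L). The 32 ESC libraries were grown in 2i and LIF and taken at 4 times after Dox (4 h, 8 h, 24 h and 72 h), with 2 libraries at each time for the WT-H3.3 line, for both mutant lines and for the WT-H3.3 line with GSK343, which blocks the PRC2 methyltransferase. The 6 retinoic acid (RA) libraries held cells differentiated in RA without LIF and 2i. These cells received Dox after the start of RA treatment, with 1 library per line at 24 and at 72 h of Dox. The 4 OPC libraries came from WT-H3.3 and H3.3K27M cells taken through embryoid bodies with RA and purmorphamine and then OPC medium, with 1 library per line at 24 and at 72 h. Every library came from cells given Dox, so an effect of the induced histone and a difference between the lines before induction cannot be told apart. The study's methods describe biological replicates made weeks apart, without saying which libraries share an experiment or whether more than 1 clone of a line was used. Where a line has 1 library per time, Dox time and experiment may coincide and cannot be told apart.

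Total counts ran from 7499258 to 12387113 in OPCs and from 2239137 to 22269533 in RA-treated cells, where the highest was H3.3K27M at 24 h. In ESCs they ran from 68378 to 21161392. The lowest, H3.3K27L at 72 h, replicate 2, could show only abundant transcripts. Levels are CPM, counts scaled to a common library size with TMM factors, and a level is compared only across libraries for the same gene. No table row is the tagged transgene, so the induction itself could not be checked. In OPCs the defining markers were unequal. Olig2 stood at 368 and 303 CPM in WT-H3.3 and at 1096 and 1140 CPM in H3.3K27M (24 and 72 h in this order here and below), whereas Pdgfra was at 17.3 and 25.6 CPM in WT-H3.3 and at 0.63 and 0.89 CPM in H3.3K27M, and Sox10 was at 2.14 and 3.72 CPM against 0.16 and 0.59 CPM. Of the 6 OPC markers, 2 (Pdgfra and Sox10) had both WT-H3.3 libraries above and 4 (Olig1, Olig2, Cspg4 and Nkx2-2) had both below.

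On the mouse build NCBIM37, Vgf is on the plus strand of chromosome 5 from 137506165 to 137509221, and Nptx2 is on the same strand from 145306756 to 145318347. Scg2 is on the minus strand of chromosome 1 from 79431244 to 79436665. Chga is on the plus strand of chromosome 12 from 103793179 to 103803237. Chromosome 2 holds both Chgb, from 132607014 to 132620815, and Bdnf, from 109514857 to 109567204, on the plus strand. Npy is on the plus strand of chromosome 6 from 49772709 to 49779506, and Sst is on the minus strand of chromosome 16 from 23889667 to 23890930. Gal is on the minus strand of chromosome 19 from 3409919 to 3414472, and Penk is on the minus strand of chromosome 4 from 4060678 to 4065966. Counts were summed per gene, so they are not divided among exons or transcripts.

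The promoters of the set are shown for the cAMP response element, which many genes of this kind carry. The set was picked as genes of this kind, so the shares below are a description. RefSeq windows (GRCm38.p6) of 300 bases ran from 250 before to 50 after a transcript start. They were at hand for 7 of the 10 genes, in 13 windows of which 7 were of Bdnf. Vgf, Penk and Nptx2 had no window, so their promoters were not searched. Each window was searched on both strands for the full element, TGACGTCA, and for its half-site, TGACG or CGTCA, which the full element contains. The full element lay in 3 genes, Scg2, Chgb and Sst, and the half-site in 6. Of the 7 Bdnf windows, 1 held a half-site and the other 6 held none. Over all 32851 windows in the table, 1.79% held the full element and 20.8% the half-site, or 2.03% and 23.0% of 27025 genes. The 120 bases before the start are printed below for the 3 genes with a full element and for Chga and Bdnf with a half-site, 5′ to 3′ on the gene's strand, with the matched letters in capitals. The windows are chr1:79440027-79440146 (minus strand) for Scg2, chr2:132781522-132781641 (plus) for Chgb, chr16:23890845-23890964 (minus) for Sst, chr12:102554821-102554940 (plus) for Chga and chr2:109692316-109692435 (plus) for 1 Bdnf start.
Scg2: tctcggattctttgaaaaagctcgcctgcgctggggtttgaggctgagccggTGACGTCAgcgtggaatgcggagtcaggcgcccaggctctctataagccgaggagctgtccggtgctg
Chgb: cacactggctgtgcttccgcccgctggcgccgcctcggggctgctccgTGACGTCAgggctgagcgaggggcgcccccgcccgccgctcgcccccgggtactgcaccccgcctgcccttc
Sst: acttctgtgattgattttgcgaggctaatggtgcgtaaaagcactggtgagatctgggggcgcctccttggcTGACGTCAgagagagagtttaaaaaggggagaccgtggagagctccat
Chga: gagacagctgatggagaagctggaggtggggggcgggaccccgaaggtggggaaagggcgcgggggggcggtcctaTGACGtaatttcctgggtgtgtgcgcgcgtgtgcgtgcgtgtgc
Bdnf: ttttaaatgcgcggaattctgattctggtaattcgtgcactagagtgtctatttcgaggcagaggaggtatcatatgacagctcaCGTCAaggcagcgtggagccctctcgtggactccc
The first matched base was 68 bases before the start in Scg2, 72 in Chgb and 48 in Sst. The half-site began 44 bases before the start in Chga and 35 in Bdnf. A match to these letters does not show that the site is bound.

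In OPCs, Vgf had the largest ratio between the lines that could be formed among the 10 genes at each Dox time, Penk at 72 h having no count in H3.3K27M to form one. Vgf, a granin-like precursor of several secreted peptides, had 1956 and 1476 counts in WT-H3.3 and 8 and 13 counts in H3.3K27M. These were 190 and 166 CPM against 1.27 and 1.93 CPM. Both WT-H3.3 libraries lay far above both H3.3K27M libraries. The WT-H3.3 level was 150 times the H3.3K27M level at 24 h and 86.3 times at 72 h, and 111 times over both (95% exact interval 72.7 to 180). This interval and the others in this account cover counting error only, with 1 library per line and time, and are no test between the lines. In these bulk libraries, fewer cells that express a gene and less RNA per cell cannot be told apart.

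Scg2 encodes secretogranin II, the precursor of secretoneurin. It had 2031 and 2116 counts in WT-H3.3 against 48 and 98 in H3.3K27M, or 197 and 238 CPM against 7.60 and 14.5 CPM. The groups did not overlap, and the ratio was 26.0 at 24 h and 16.4 at 72 h. Over both times it was 19.4 (95% interval 16.4 to 23.0). Chgb, encoding chromogranin B, had few counts, 25 and 25 in WT-H3.3 against 5 and 3, and the ratio over both times was 4.26 (2.0 to 10.4). Chga, encoding chromogranin A, had 9 and 9 counts against 6 and 1. At 24 h its H3.3K27M level of 0.9495 CPM was above the WT-H3.3 level of 0.8736 CPM, so the lines overlapped, and the ratio over both times of 1.75 had an interval of 0.698 to 4.96. The ratios over both times of the 4 granin genes thus ran from 1.75 in Chga to 111 in Vgf.

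Among Penk, Npy, Sst and Gal, Penk showed the widest gap. It encodes proenkephalin, the precursor of the enkephalin opioid peptides. Penk had 69 and 67 counts in WT-H3.3 against 1 and 0 in H3.3K27M, or 6.70 and 7.55 CPM against 0.158 and 0 CPM. The ratio was 42.3 at 24 h, with an interval of 7.35 to 1696. At 72 h, with no count in H3.3K27M, it was at least 17.0 when 3 counts stand for 0. Npy, encoding neuropeptide Y, had 10 and 6 counts against 4 and 1, and its ratio of 2.18 had an interval of 0.763 to 7.61. Sst, encoding somatostatin, had 0 and 3 counts against 0 and 1, and Gal, encoding galanin, had a single count in the 4 libraries. The counts of these last 3 genes were too few to show a difference or its absence.

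Bdnf encodes brain-derived neurotrophic factor, a growth factor that is packed into dense-core vesicles. It had 911 and 590 counts in WT-H3.3 against 42 and 57, or 88.4 and 66.5 CPM against 6.65 and 8.45 CPM. The ratio was 13.3 at 24 h and 7.87 at 72 h, and 10.3 over both (8.43 to 12.8). Nptx2, a secreted pentraxin that clusters AMPA receptors at synapses, had 16 and 17 counts against 2 and 6, with a ratio over both times of 2.81 (1.27 to 7.04). For Vgf, Scg2, Bdnf and Nptx2 the ratio was lower at 72 h than at 24 h, for Chga, Chgb and Npy it was higher, and with 1 library per line and time the change between times was not tested.

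**Figure D1:**
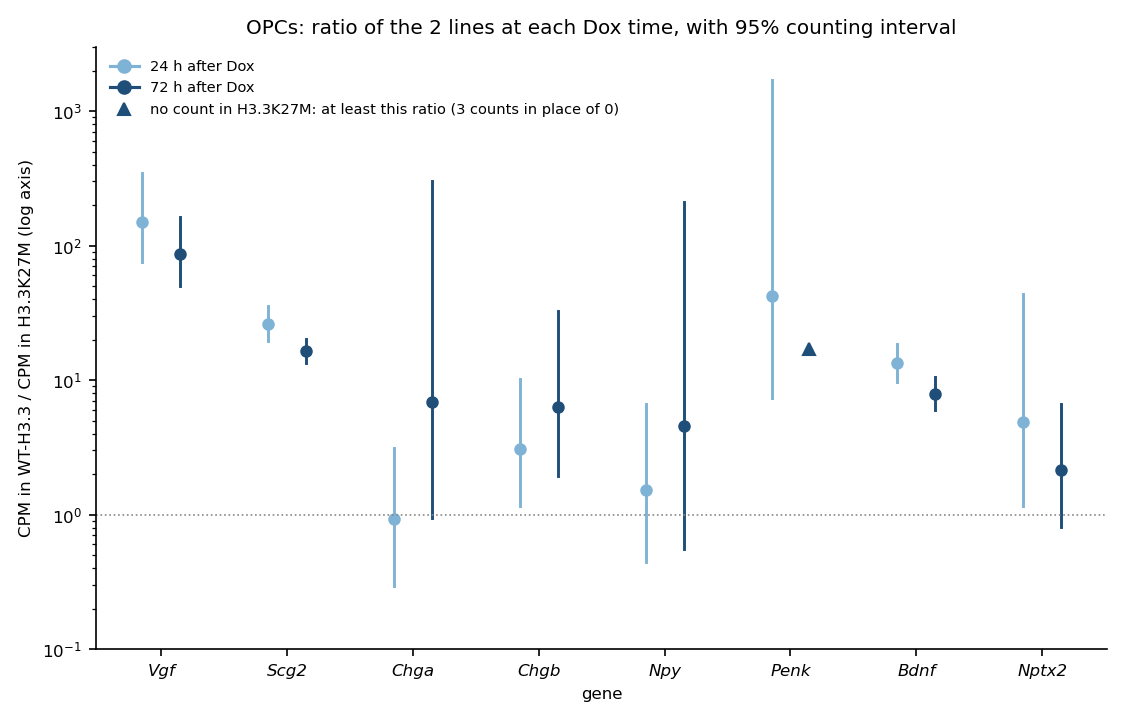
OPCs: ratio of the WT-H3.3 level to the H3.3K27M level (CPM, log axis) for 8 of the 10 genes at 24 h (light) and 72 h (dark) after Dox, with vertical lines for 95% exact counting intervals. Vgf stands highest at 150 and 86.3, Scg2 and Bdnf follow with narrow intervals, Penk at 72 h is a triangle at its lower bound of 17.0, and the intervals of Chga and Npy cross the dotted line of equal levels.

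Of the 10 genes, 8 had at least 10 counts over the 4 OPC libraries. In 7 of these both WT-H3.3 libraries lay above both H3.3K27M libraries, and Chga was the exception. Among all 15084 genes with that many counts, 37.4% had both WT-H3.3 libraries above and 36.4% had both below, and 27.9% of 12467 genes tested differed between the lines by edgeR's quasi-likelihood test at an adjusted p under 0.05 with a fold above 2 or below 0.5. Since this contrast chose the genes, nothing is read from their count.

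The machinery that makes and releases peptides was not uniformly lower in H3.3K27M OPCs. Of 22 genes of secretory granules and prohormone processing, a list that includes the 4 granins, 21 had at least 10 counts, and 12 had both WT-H3.3 libraries above, 4 had both below and 5 overlapped. For this list and those that follow, the shares over all genes are the 37.4% above and 36.4% below just given. Ptprn, a protein of the granule membrane, was at 41.4 and 36.1 CPM in WT-H3.3 and at 0.47 and 0.15 CPM in H3.3K27M. Syt4, a synaptotagmin of peptide vesicles, was at 186 and 129 CPM against 5.06 and 2.52 CPM. The processing enzymes differed among themselves. Pam, which amidates peptides, was at 216 and 174 CPM against 51.4 and 62.4 CPM, whereas Cpe, which trims them, was at 394 and 317 CPM against 316 and 315 CPM. Syt7, a calcium sensor of exocytosis, went the other way, with 16.2 and 18.03 CPM in WT-H3.3 and 102 and 93.1 CPM in H3.3K27M.

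Of 26 other neuropeptide genes, 12 had at least 10 counts in OPCs, of which 9 had both WT-H3.3 libraries above and 3 overlapped. Nppc, the precursor of C-type natriuretic peptide, was at 11.8 and 9.47 CPM against 0.16 and 0 CPM, and Tac1, the precursor of substance P, was at 2.72 and 3.16 CPM against 0.16 and 0.15 CPM. The receptor genes, with 4 above, 3 below and 3 overlapping of 10, lay near the shares over all genes. Ntrk2, the receptor of Bdnf, was at 96.6 and 70.0 CPM against 48.7 and 49.5 CPM, while Adcyap1r1, the receptor of the peptide PACAP, was at 43.6 and 44.7 CPM against 224 and 220 CPM. So did the neurotrophins and pentraxins, with 2 above, 2 below and 2 overlapping of 6.

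Genes that respond to stimulation were mostly higher in WT-H3.3 OPCs. Of 14 activity-regulated transcription factors and related genes, 13 had at least 10 counts, and 12 of these had both WT-H3.3 libraries above and 1 overlapped. Egr1, an immediate early transcription factor, was at 943 and 1242 CPM in WT-H3.3 and at 152 and 113 CPM in H3.3K27M. Junb was at 418 and 255 CPM against 24.5 and 11.4 CPM, and Fos was at 76.6 and 78.0 CPM against 9.97 and 12.9 CPM. The median log2 ratio of WT-H3.3 over H3.3K27M was 2.61 for these 13 genes, beside -0.00287 for all 15084 genes. Of 10 REST and CREB genes, 3 were above, 4 below and 3 overlapped, near the shares over all genes. Rest was at 174 and 161 CPM against 134 and 131 CPM, whereas Rcor2, a corepressor partner of REST, was at 24.4 and 27.4 CPM against 157 and 165 CPM.

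**Figure D2:**
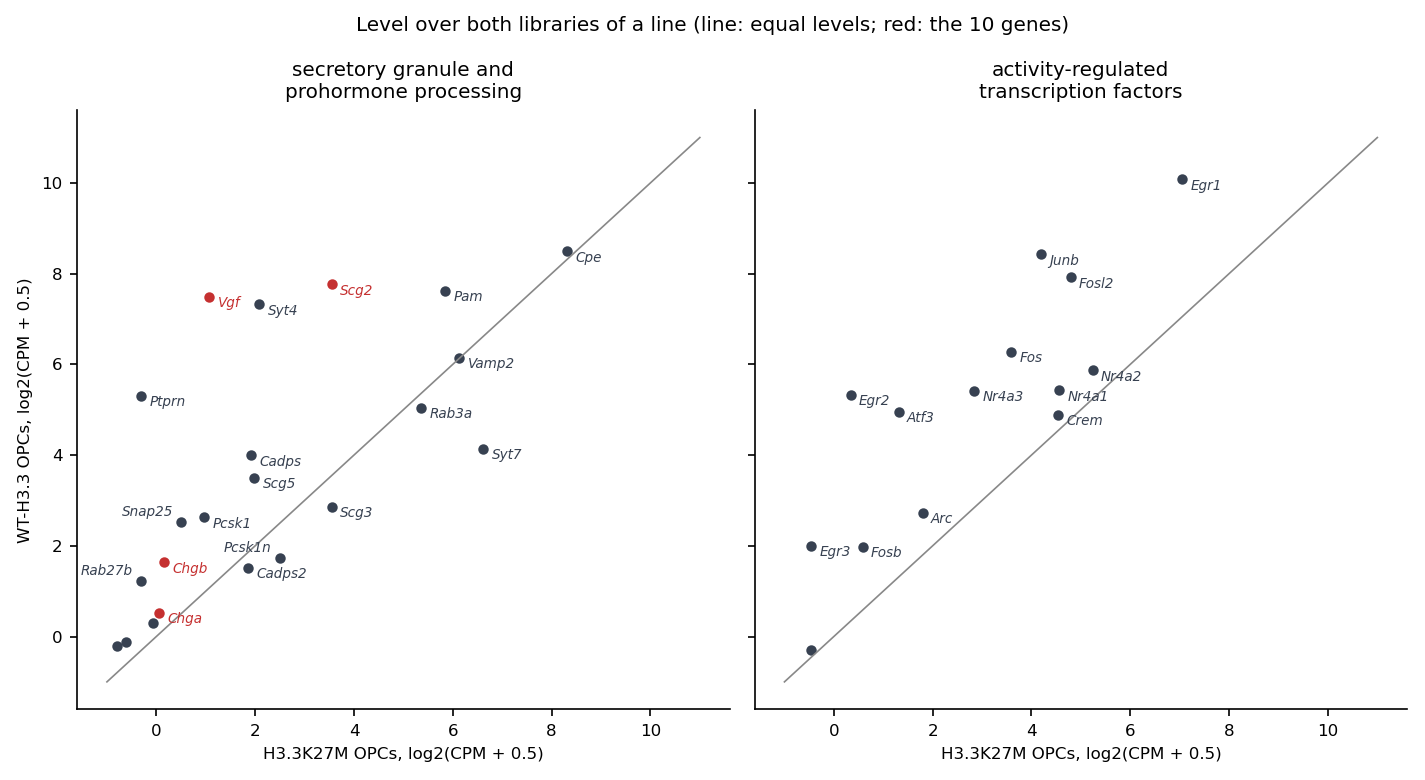
OPCs: level of each gene in WT-H3.3 (vertical axis) against H3.3K27M (horizontal axis), as log2(CPM + 0.5) over both libraries of a line, for granule and prohormone processing genes (left, granins of the set in red) and activity-regulated transcription factors (right), with the line of equal levels. Vgf, Scg2, Syt4 and Ptprn lie far above the line, Cpe and Vamp2 lie near it and Syt7 lies below it, while Egr1, Junb, Fos and Egr2 lie above it.

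Markers of other cells also differed between the lines in OPCs, in both directions. The 7 fibroblast markers summed to 626 and 679 CPM in WT-H3.3 and to 30.9 and 26.7 CPM in H3.3K27M, with 6 of 7 above and 1 below. The 13 neuron markers summed to 1173 and 1250 CPM against 2509 and 2866 CPM, with 6 above and 6 below, and they included Stmn2 at 176 and 124 CPM against 0.95 and 0.59 CPM and Syt1 at 12.04 and 15.7 CPM against 215 and 313 CPM. The 6 OPC markers summed to 607 and 567 CPM against 1919 and 2144 CPM. The 4 neural progenitor markers were all below in WT-H3.3, at a sum of 485 and 469 CPM against 629 and 659 CPM. Of the 5 astrocyte markers, 3 (Gfap, Aqp4 and Aldh1l1) were above and 2 below, and Gfap was at 37.3 and 26.3 CPM against 0.32 and 0 CPM. Their sum, 932 and 919 CPM against 1001 and 1370 CPM, was mostly Slc1a3, at 827 and 835 CPM against 962 and 1321 CPM. The 5 markers of mature oligodendrocytes summed to 29.1 and 24.9 CPM against 35.0 and 36.6 CPM, and of the 3 with at least 10 counts, 1 was above and 2 below. The 5 microglia and macrophage markers summed to at most 1.26 CPM in any OPC library. The 7 pluripotency markers summed to 145 and 131 CPM in WT-H3.3 against 25 and 25.6 CPM. They did not move as a group: of the 4 with at least 10 counts, 2 were above, 1 below and 1 overlapped. Of 4 neuroendocrine markers with at least 10 counts, 2 were above and 2 below. The part of these cell types in the levels of Vgf, Scg2, Penk and Bdnf was not tested.

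Against the ESCs of the same lines, the set was split by where its genes were already on. In WT-H3.3, Vgf averaged 0.329 ± 0.210 CPM (SD, n = 8) in ESCs, with a range of 0.102 to 0.683 CPM, so its mean in OPCs was 541 times as high. Scg2 had a single count over the 8 WT-H3.3 ESC libraries and none in the 8 H3.3K27M libraries, where OPCs had 48 and 98 counts. Bdnf averaged 0.867 ± 0.227 CPM in WT-H3.3 ESCs, and its OPC mean was 89.3 times as high. In H3.3K27M, Vgf and Bdnf were also above their ESC means in OPCs, 7.58 and 6.98 times. Penk went both ways, 9.30 times its ESC mean in WT-H3.3 OPCs but at 0.104 of it in H3.3K27M OPCs.

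Chga and Nptx2 were the genes of the set that ESCs expressed most clearly relative to the other cells. Chga averaged 8.61 ± 1.21 CPM in WT-H3.3 ESCs and 8.97 ± 2.58 CPM in H3.3K27M ESCs (SD, n = 8 each), and its OPC means were 0.110 and 0.0612 of these. Nptx2 averaged 36.4 ± 5.38 CPM and 32.5 ± 7.03 CPM, and its OPC means were 0.0476 and 0.0185 of these. Both genes were thus lower in all 4 OPC libraries than in any of those 16 ESC libraries.

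**Figure D3:**
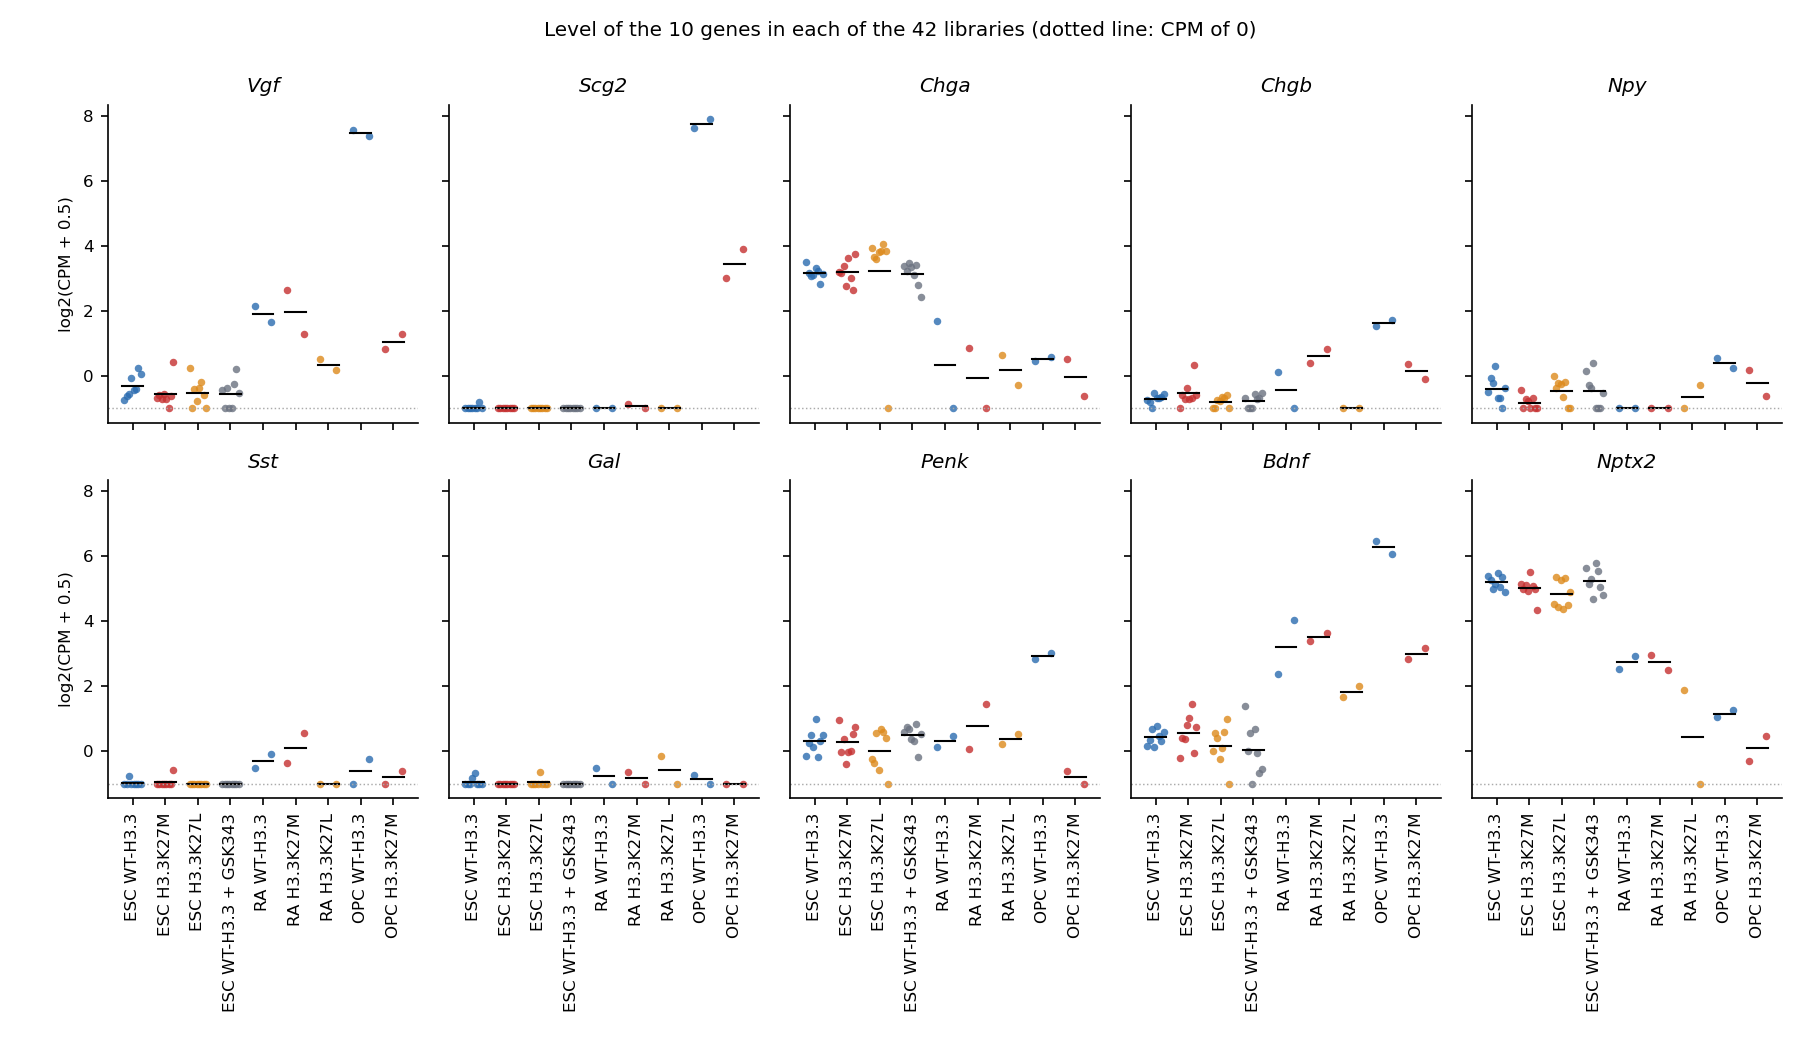
Level of each of the 10 genes, as log2(CPM + 0.5), in all 42 RNA libraries by cell kind and line, where each point is a library, black lines are means of the points and the dotted line marks 0 CPM. Vgf, Scg2, Penk and Bdnf are highest in WT-H3.3 OPCs, Chga and Nptx2 are highest in ESCs, and Sst and Gal lie near 0 in every group.

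Vgf was highest in WT-H3.3 OPCs. By mean level, RA-treated WT-H3.3 and H3.3K27M cells followed, then H3.3K27M OPCs, then RA-treated H3.3K27L cells and ESCs. RA-treated WT-H3.3 cells (2.67 to 3.92 CPM) lay within the range of H3.3K27M cells (1.93 to 5.72 CPM), so these neighbours did not differ beyond their spread. The place of H3.3K27M OPCs (1.27 to 1.93 CPM) was not resolved, since their counting intervals overlapped those of RA-treated H3.3K27M cells at 72 h and of RA-treated H3.3K27L cells at 24 h. RA-treated H3.3K27L cells (0.634 and 0.934 CPM) overlapped the 32 ESC libraries, which ran from 0 to 0.837 CPM with a median of 0.181 CPM. Scg2 was seen with 1 count in 32 ESC libraries and 1 count in 6 RA libraries, so OPCs were the only cells with more than 1 count of it.

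Genes of the set were both higher and lower in RA-treated cells than in ESCs of the same 3 lines at the same Dox times. The comparison held 6 RA libraries against 12 ESC libraries. RA, the absence of LIF and 2i and a possible difference in library kit cannot be told apart here. Vgf and Bdnf rose, Nptx2 and Chga fell, and Penk did not pass the test. These 5 genes passed the filter on low counts, while Scg2, Chgb, Npy, Sst and Gal did not. The 4 called genes stand beside 46.0% of 14803 genes called in this comparison, and nothing is read from their count. Vgf passed the filter in the RA models but not in the ESC models, and Chga the reverse, so each entered this comparison through the cells where it is high. Both were also called without a filter. Vgf rose 6.54-fold (log2 2.71, SE 0.46), with an adjusted p of 8.62e-05 by edgeR's quasi-likelihood test with Benjamini-Hochberg adjustment. Its 6 RA libraries ran from 0.634 to 5.72 CPM. Bdnf rose 6.09-fold (log2 2.61, SE 0.32, adjusted p 2.58e-06 in the same edgeR test), and its RA libraries, from 2.67 to 16.01 CPM, lay above all 32 ESC libraries, the highest of which was 2.26 CPM.

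Nptx2 fell 7.84-fold (log2 -2.97, SE 0.36, adjusted p 2.51e-06, edgeR), from 19.8 to 54.5 CPM in the 32 ESC libraries to 0 to 7.34 CPM in RA, with no overlap. Chga fell 10.01-fold (log2 -3.32, SE 0.47, adjusted p 1.13e-05, edgeR). Its counts in RA were 14, 29 and 8 at 24 h and 0, 0 and 1 at 72 h, in the order WT, K27M, K27L. With Dox time within each cell kind as a block the Chga value was -4.53, or 23.1-fold, and it was -5.53 without the WT-H3.3 library at 24 h and -5.18 without the H3.3K27M library at 24 h. The Nptx2 value was -5.25 without the H3.3K27L library at 24 h. Penk differed by -0.04 (SE 0.40, adjusted p 0.933, edgeR), with 2 to 12 counts per RA library.

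**Figure D4:**
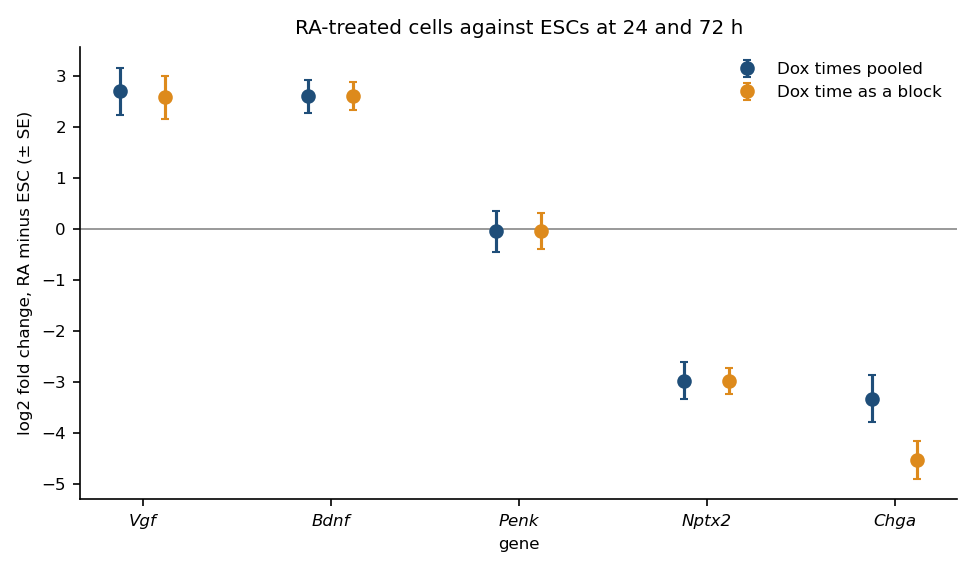
RA-treated cells minus ESCs at 24 and 72 h after Dox: log2 fold change with its standard error for the 5 genes tested, from the model with Dox times pooled (blue) and with Dox time as a block (orange). Vgf (2.71) and Bdnf (2.61) lie above 0, Nptx2 (-2.97) and Chga (-3.32) lie below 0 in both models, and Penk lies at 0.

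The genes around the set also differed in both directions between RA-treated cells and ESCs. Each count below stands beside the 46.0% of all genes called. Of 12 granule and processing genes tested, a count that includes Vgf and Chga, 7 rose and 3 fell. Rab27b, a GTPase of granule docking, rose by a log2 value of 5.67 (SE 0.53, adjusted p 5.67e-07), Scg5, a chaperone of a prohormone convertase, by 5.79 (SE 0.67, adjusted p 4.66e-06), and Pam by 2.03 (SE 0.22, adjusted p 8.04e-07), all by edgeR. Of 10 activity-regulated genes tested, 7 rose and 1 fell, among them Fosl2 (log2 5.64) and Atf3 (2.93) upward and Arc (-2.83) downward. Of 5 other neuropeptide genes, 2 rose and 2 fell: Nts, encoding neurotensin, by 6.10 and Nmb, encoding neuromedin B, by 1.60 upward, and Trh, encoding thyrotropin-releasing hormone, by -8.37 and Calca, encoding calcitonin and CGRP, by -4.52 downward. Of 9 REST and CREB genes, 4 were called, about the share over all genes. Of these, 3 rose and Rest fell (log2 -1.57, SE 0.15, adjusted p 2.17e-07, edgeR). Of 7 receptors, 3 rose and 3 fell, with Ntrk2 at 3.83. The median log2 fold change was 1.28 for the granule genes, Vgf and Chga included, and 2.39 for the activity-regulated genes, beside 0.01 for all genes tested.

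Among the RA-treated lines, Vgf, Bdnf and Nptx2 were each lowest in H3.3K27L at both Dox times. In the order WT, K27M, K27L, Vgf had 20, 127 and 7 counts at 24 h and 6, 6 and 2 at 72 h. These were 3.92, 5.72 and 0.934 CPM at 24 h and 2.67, 1.93 and 0.634 CPM at 72 h, so the H3.3K27L pair lay below both other pairs. Bdnf had 24, 222 and 20 counts at 24 h and 36, 37 and 11 at 72 h, or 4.71, 9.99 and 2.67 CPM and 16.01, 11.9 and 3.49 CPM. Nptx2 had 27, 163 and 24 counts at 24 h and 16, 16 and 0 at 72 h, and the 0 of H3.3K27L at 72 h allows up to 3 counts, or 0.951 CPM. These 3 genes were the ones of the set that passed the filter on low counts in RA. The share of all genes that were lowest in H3.3K27L at both times was not counted, so nothing is read from the 3 together. At 72 h the order of Vgf rests on only 6, 6 and 2 counts.

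With both Dox times pooled in each line, no gene of the set was called between the RA-treated lines by edgeR's quasi-likelihood test, and 0.0% of 12233 genes were called in each of the 3 comparisons. In H3.3K27L against H3.3K27M, Vgf differed by a log2 value of -2.21 (SE 0.82), Bdnf by -1.81 and Nptx2 by -1.90. At an unadjusted p under 0.05, the count of the 3 genes was 1 here, and it was 0 in both comparisons with WT-H3.3. DESeq2 called 0 in all 3 comparisons. H3.3K27M against WT-H3.3 gave 0.16 (SE 0.77) for Vgf, -0.0026 for Bdnf and -0.05 for Nptx2.

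With Dox time as a block, which removes the difference between the 24 and 72 h libraries, 6.72% of genes were called in H3.3K27L against H3.3K27M. In edgeR's test Vgf fell (log2 -2.34, SE 0.56, adjusted p 0.0169), as did Bdnf (log2 -1.85, SE 0.41, adjusted p 0.0119), which is 2 of the 3 genes tested. Nptx2 differed by -1.65 (SE 0.60, adjusted p 0.0969, edgeR). Against WT-H3.3, where 3.64% of genes were called with the block, the values were -2.08 for Vgf (adjusted p 0.0689), -1.54 for Bdnf (adjusted p 0.0634) and -1.61 for Nptx2 (adjusted p 0.175) in the same edgeR test, and none was called. In H3.3K27M against WT-H3.3, with 0.0163% of genes called, Vgf differed by 0.26 (SE 0.47, adjusted p 0.971, edgeR).

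Neither call held without the deepest library. Without the H3.3K27M library at 24 h the blocked values were -1.54 for Vgf (adjusted p 0.736, edgeR) and -1.27 for Bdnf (adjusted p 0.380, edgeR), and without the H3.3K27L library at 24 h Vgf was at -1.94 (adjusted p 0.411, edgeR). Over the 6 omissions the adjusted p in that edgeR test ran from 0.000877 to 0.736 for Vgf and from 2.80e-06 to 0.380 for Bdnf. Markers of other states differed among these lines too. The 7 pluripotency markers summed to 551 and 337 CPM in H3.3K27L, against 284 and 176 CPM in WT-H3.3 and 211 and 167 CPM in H3.3K27M. The 4 neural progenitor markers summed to 172 and 66.0 CPM, against 288 and 98.3 CPM and 467 and 130 CPM. The progenitor markers did not move as a group. In the blocked model of H3.3K27L against WT-H3.3, Nes was lower (log2 -1.28, adjusted p 0.00496) and Sox2 higher (1.12, adjusted p 0.0188), by edgeR. The 13 neuron markers summed to between 99.9 and 155 CPM in all 6 libraries, but in the blocked model of H3.3K27L against H3.3K27M their members went both ways, with Nefl higher (log2 2.04) and Dcx lower (-1.96), called by edgeR as 2 of 7 tested. In that model the fibroblast markers Dcn (-1.91) and Col3a1 (-1.14) and the progenitor marker Nes (-1.55) were lower, as Vgf was, whereas the fibroblast marker Thy1 (1.85), the OPC marker Pdgfra (1.69), the pluripotency markers Klf4 (1.97) and Dppa5a (1.33) and the macrophage marker Csf1r (1.98) were higher. Their part in the levels of Vgf and Bdnf was not tested.

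**Figure D5:**
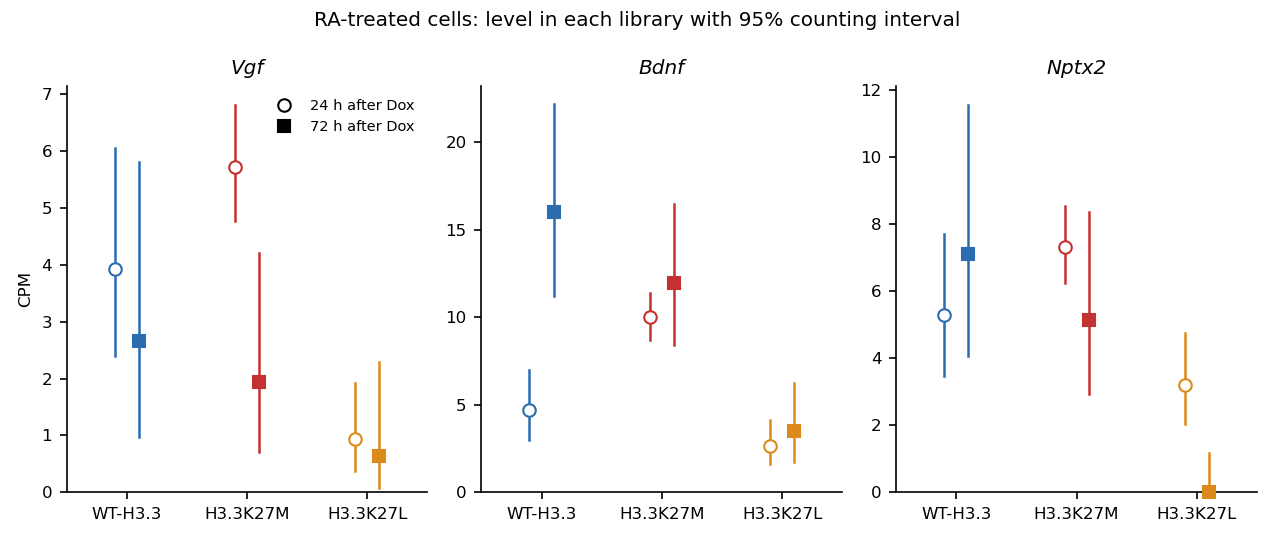
RA-treated cells: level (CPM) of Vgf, Bdnf and Nptx2 in each of the 6 libraries, by line, at 24 h (open circles) and 72 h (filled squares) after Dox, with 95% counting intervals. The H3.3K27L libraries are lowest for all 3 genes at both times, and Nptx2 has no count in H3.3K27L at 72 h.

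In the blocked model of H3.3K27L against H3.3K27M, 2 of 8 granule genes tested were lower, Vgf itself and Syt7 (log2 -1.50, SE 0.39, adjusted p 0.0262, edgeR). Nts was lower by -3.19 (SE 0.86, adjusted p 0.0298, edgeR), while Nmb was higher by 1.14. Of the 10 activity-regulated genes tested, Fosb (2.30) and Nr4a3 (2.16) were called, both higher in H3.3K27L. These calls stand beside 6.72% of all genes called in this model. The calls of Vgf and Bdnf did not hold without the H3.3K27M library at 24 h, and that omission is not reported here for the other genes. The median over the granule genes was -1.14, beside -0.03 for all genes tested.

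Between 24 and 72 h after Dox in RA-treated cells, with the line in the model, 42.9% of genes were called by edgeR and none of the 3 genes of the set tested. Bdnf was higher at 72 h (log2 0.99, SE 0.34, adjusted p 0.0190 in the edgeR test), just short of the fold of 2 that a call needs. It was the 1 gene at an unadjusted p under 0.05, and DESeq2 called it at a value of 1.04. Bdnf was higher at 72 h in each line, from 4.71 to 16.01 CPM in WT-H3.3, from 9.99 to 11.9 CPM in H3.3K27M and from 2.67 to 3.49 CPM in H3.3K27L. Vgf differed by -0.82 (adjusted p 0.146, edgeR) and was lower at 72 h in each line. Nptx2 differed by -0.35 and did not keep 1 direction over the lines. How long the 24 h libraries had been in RA is not given in the sources used here, and the part of RA time in these differences was not tested.

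In ESCs none of the set was called between lines, with GSK343 or over time. Bdnf, Penk, Nptx2 and Chga passed the filter, and Vgf, with 0 to 10 counts per library, did not. The shares of 14012 genes called by edgeR's quasi-likelihood test were 0.0143% in H3.3K27M against WT-H3.3, 3.43% in H3.3K27L against WT-H3.3, 0.0% for GSK343 and 4.04% between 72 and 4 h. With the replicate number as a block, the H3.3K27M comparison had 0.164% of genes called and still 0 of the set. At an unadjusted p under 0.05 the count of the 4 genes was 0, 1, 0 and 1 in these comparisons, and DESeq2 called 0 in each.

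Chga came closest in ESCs. It averaged 12 ± 5.06 CPM in H3.3K27L (SD, n = 8), where the low-count library at 72 h had none, and 13.7 ± 1.55 CPM in the other 7 libraries, beside 8.61 ± 1.21 CPM in WT-H3.3. Those 7 libraries ran from 11.5 to 16.2 CPM and the 8 WT-H3.3 libraries from 6.70 to 10.8 CPM, so the groups did not overlap without that library. The fitted difference was 0.66 (SE 0.17, adjusted p 0.0136, edgeR), below the fold of 2 needed for a call, and it was 0.68 without that library. With that library kept, DESeq2 gave 0.62 (SE 0.22, adjusted p 0.0709), which also missed the limit on the adjusted p. In H3.3K27M the difference in Chga was 0.07, with levels of 5.70 to 13.1 CPM that covered the WT-H3.3 range. Nptx2 averaged 36.4 ± 5.38 CPM in WT-H3.3, 32.5 ± 7.03 CPM in H3.3K27M, 29.2 ± 8.99 CPM in H3.3K27L and 38.6 ± 10.6 CPM with GSK343 (SD, n = 8 each). Its ranges overlapped in all 4 groups, and its differences from WT-H3.3 were -0.17, -0.36 (adjusted p 0.224) and 0.08 in the edgeR test.

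Bdnf and Penk were low in every ESC group. Bdnf means lay between 0.681 CPM with GSK343 and 1.08 CPM in H3.3K27M, and Penk means between 0.587 CPM in H3.3K27L and 0.925 CPM with GSK343, with overlapping ranges throughout. Chgb, Npy, Sst and Gal had at most 11 counts in any ESC library. Of the genes around the set, Sstr2, a somatostatin receptor, was higher in H3.3K27L ESCs (log2 1.63, SE 0.38, adjusted p 0.00868, edgeR) as 1 of 6 receptors tested. Gata3, a neuroendocrine marker, was lower in the same comparison (log2 -1.54, SE 0.36, adjusted p 0.0081, edgeR) as 1 of 3 such markers tested. Between 72 and 4 h, Nptx2 was lower by -0.38 (p 0.0455 unadjusted, adjusted p 0.119, edgeR). Of the gene and marker lists 7 genes were called, beside 4.04% of all genes tested, and nothing is read from their count. Cadps, a priming factor of dense-core vesicles, fell by 1.13 and Fosb rose by 1.51 (adjusted p 0.0494 and 0.0249, edgeR). The neuron marker Map2 (1.35) rose, as did both fibroblast markers tested, Thy1 (1.47) and Col1a1 (2.65-fold), and the neuroendocrine markers Isl1 (-1.12) and Gata3 (-1.06) fell.

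Over all 42 libraries the 5 genes with the pattern most like that of Vgf by Pearson correlation were not other genes of the set. By Pearson correlation of log2(CPM + 0.5) among the 13572 genes that averaged 1 CPM or more, the 5 nearest were Inhba (r = 0.954), encoding a subunit of activin, Thbs2 (0.948), a thrombospondin of the extracellular matrix, Areg (0.931), a ligand of the EGF receptor, Ifi202b (0.927), an interferon-inducible gene, and Postn (0.926), a matrix protein that was also on the fibroblast list. Bdnf had r = 0.878 and was the 40th gene in this order, Scg2 had 0.854 and was the 86th, and Penk had 0.660. Chga (-0.516) and Nptx2 (-0.625) ran against Vgf. Chgb, Npy, Sst and Gal averaged under 1 CPM and were not ranked. By Spearman's rho the 5 nearest genes were others. The libraries share lines and cell kinds and the WT-H3.3 OPC libraries stand far out, so r is a description. Without those libraries r was 0.868 for Inhba, 0.771 for Thbs2, 0.639 for Areg, 0.645 for Ifi202b and 0.832 for Postn. In WT-H3.3 OPCs Inhba was at 57.2 to 58.9 CPM against 1.19 to 3.64 CPM in H3.3K27M, and Thbs2 at 163 to 249 CPM against 0.741 to 1.42 CPM.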

How the data were processed

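RNA was measured in 42 libraries, whose deposited values are counts of reads per gene. According to the study's methods and the submitters' processing notes, the authors aligned reads with STAR 2.7.1 to mm9, allowing mismatches. The counter, its strand setting and the gene annotation are not given in the sources used here, nor which library was made with the 3′ kit and which with the other kit. The other 113 samples of the series, which measure chromatin, were not analysed.

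Of 55471 genes in each table, 32589 matched the NCBIM37 annotation by gene ID (98.17% of counts). Chromosome 8 (2532 genes, 5.849% of counts, some placed by table order) was left out, as in the study. Low counts were removed with filterByExpr, libraries were scaled by TMM and lines were compared with edgeR 4.0.16 (quasi-likelihood test) in R 4.3.3 over all genes tested, with Benjamini-Hochberg adjustment. A call needed an adjusted p under 0.05 and a fold above 2 or below 0.5. ESC models held 1 mean per group and time, and RA and OPC models 1 mean per line. DESeq2 1.42.0, its size factors, no filter, chromosome 8 kept, upper-quartile scaling (for RA against ESCs), blocks and the omission of each library were the alternatives, of which the RA block together with the omission of each library was added after seeing the data. The tests were tried on simulated counts with the same dispersion for all genes and no difference between Dox times. That trial does not show how the pooled RA model performs on the real libraries. A value of 0 was read as up to 3 counts, log2 levels used a pseudocount of 0.5, and intervals for ratios of counts are exact binomial. Levels came from Python 3.11.15 with SciPy 1.17.1.

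The genes named are all 10 of the set, the 5 genes closest to Vgf by Pearson correlation, and in each gene list up to 4 genes of lowest adjusted p called in a tested comparison. Other genes named with OPC values were chosen after their values were seen. The 10 genes and the 16 lists were chosen with earlier results of these data known. The list genes Galr3 and Sox1 were not matched, and Map2 was matched by an older symbol.

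The replicate numbers of WT-H3.3 and H3.3K27M ESCs paired the libraries: deviations from the group means correlated by 0.570 to 0.688 at all 4 times, over 9088 genes. Other pairs of ESC groups ran from -0.687 to 0.592. The methods place replicate experiments weeks apart, but they do not say that a number marks the same experiment in every line, so these pairs were taken to share only a number. No pair of the 117 within-group pairs of libraries that were compared agreed within sampling noise. The OPC columns at 72 h carry another replicate number than the labels do and were assigned by line and time.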

Additional observations from a re-analysis of the deposited data

Results flagged for a closer look

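The 4 genes tested in ESCs were each checked in the 4 ESC groups of 8 libraries, and 1 of these 16 checks found a library apart from the rest. Chga was at 0 CPM in the H3.3K27L library at 72 h, replicate 2, where the other 7 libraries of the group ran from 11.5 to 16.2 CPM. Its gap to the nearest library was 0.713 of the range of the group, above the 95% limit of 0.526 for 8 values, which chance passes in about 1 of 20 groups. That library had 68378 counts in all, so a count of 0 is not an absence of Chga.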

How the results depend on the processing

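The members called between lines in RA-treated cells depended on the handling of Dox time. In H3.3K27L against H3.3K27M the count was 0 in the pooled model and 2 in the model with the Dox time block, and omitting each library from the blocked model gave 0 to 3. Against WT-H3.3 the blocked count of 0 became 0 to 2, with 2 without the WT-H3.3 library at 24 h, the H3.3K27M library at 72 h or the H3.3K27L library at 24 h. Between 72 and 24 h, 1 gene was called with DESeq2's size factors (Bdnf), with DESeq2 (Bdnf), with no filter (Chga) and with chromosome 8 kept (Bdnf), and 0 to 2 when each library was omitted, with 2 without the H3.3K27L library at 72 h. In ESCs, 1 gene (Npy, log2 -2.96 at 72 against 4 h, adjusted p 0.0343, edgeR) was called with no filter. Where H3.3K27M against WT-H3.3 in RA gave values near 0 the sign turned: Bdnf was 0.039 with no filter, 0.0041 with chromosome 8 kept and 0.31 with the block, Nptx2 was 0.039 with the block, and omitting each library gave -0.69 to 0.61 for Vgf, -0.70 to 1.30 for Bdnf and -0.35 to 0.29 for Nptx2. Penk in RA against ESCs was 0.23 with DESeq2's size factors, 0.23 with DESeq2, 0.012 with upper-quartile scaling and -0.42 to 0.25 when each library was omitted. DESeq2's size factors moved the median of all genes in that comparison to 0.28, and the 4 calls kept their direction under every alternative run. Omitting each library gave -0.94 to 0.16 for Nptx2 between 72 and 24 h in RA, and in ESCs -0.10 to 0.18 for Chga in H3.3K27M and -1.78 to 0.71 for Chga in H3.3K27L, where -1.78 arose without the H3.3K27L library at 72 h, replicate 1, which leaves only the 68378-count library at that time. The cause of the other turns was not tested.

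With the replicate number as a block, the ESC comparisons still called 0 genes of the set. In the H3.3K27M comparison, where the pairing held, all genes called went from 2 to 23. In the comparisons whose groups share only a number they went from 481 to 546 for H3.3K27L and stayed at 0 for GSK343. Without a filter they were 152, 750 and 26 in the H3.3K27M, H3.3K27L and GSK343 comparisons, and DESeq2 called 9 for H3.3K27M and 382 against 566 between 72 and 4 h. In RA, DESeq2 called 18 genes for H3.3K27L against H3.3K27M and 5 against WT-H3.3, and 6 and 7 were called without a filter. By Spearman's rho, 0 of the 5 genes nearest to Vgf were shared with those by Pearson's r. Depth limits Chgb, Npy, Sst and Gal, which had at most 25 counts in any library.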

Other observations

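Between 24 and 72 h of Dox in RA-treated cells, where 42.9% of all genes were called, single genes of the lists around the set were called while Vgf, Bdnf and Nptx2 were not. Nmb rose by a log2 value of 2.34 (SE 0.26, adjusted p 6.22e-06) and Pomc, the precursor of ACTH and endorphin, by 2.72 (SE 0.55, adjusted p 0.000825), by edgeR's quasi-likelihood test, and these were 2 of 3 other neuropeptide genes tested. Ptprn fell by 2.80 (SE 0.53, adjusted p 0.000439, edgeR) and Scg5 rose by 1.46 (SE 0.46, adjusted p 0.0130, edgeR) and were the 2 called of 8 granule genes tested. Nptx1, a pentraxin related to Nptx2, fell by 2.27 (SE 0.76, adjusted p 0.0177, edgeR) as 1 of 6 neurotrophin and pentraxin genes, and Sort1, the sortilin that binds precursors of neurotrophins, fell by 1.64 (SE 0.15, adjusted p 8.54e-07, edgeR) as 1 of 4 receptors. Rcor2 rose by 2.29 (SE 0.13, adjusted p 1.69e-08, edgeR) as 1 of 2 called of 9 REST and CREB genes.

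In RA-treated H3.3K27M cells Chgb had 18 and 4 counts at 24 and 72 h, or 0.810 and 1.29 CPM, beside 3 and 0 counts, or 0.588 and 0 CPM, in WT-H3.3 and none in H3.3K27L. Sst had 6 and 3 counts, or 0.270 and 0.967 CPM, beside 1 and 1 counts, or 0.196 and 0.445 CPM, in WT-H3.3 and none in H3.3K27L. For Chgb and for Sst, the counting intervals in H3.3K27M and WT-H3.3 overlapped at both times. Both genes were under the filter on low counts, so no test was made. The pooled RA model had a common dispersion of 0.457 and the model with Dox time as a block 0.0177, beside 0.0460 in ESCs and 0.0144 in OPCs. The difference between 72 and 24 h correlated across genes between each pair of RA-treated lines by 0.927 to 0.953.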
